A study of Homo sapiens with 80 samples.

Results

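The genes described here encode the proteins of the cytosolic ribosome. Members were the gene symbols present in both TPM tables that match the pattern of RPL or RPS followed by a number, with the stalk genes RPLP0, RPLP1 and RPLP2 and the gene RPSA. Of 84 symbols that matched, RPS4X was left out by the rule, as were its Y-linked paralogs and rows with a numbered suffix. This left 83 members among 43388 genes: 46 large subunit genes, 30 small subunit genes and 7 paralogs (RPL3L, RPL7L1, RPL10L, RPL22L1, RPL26L1, RPL39L and RPS27L). Measured values played no part in the choice.

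A cytosolic ribosome has a small subunit, which reads the mRNA, and a large subunit, which joins amino acids. Each ribosome holds a single copy of most of these proteins, so their mRNAs are usually kept in balance. Most of the mRNAs begin with a 5′ terminal oligopyrimidine (TOP) tract, a C followed by an unbroken run of C and T, through which mTOR signalling controls their translation. Paralogs can take the place of a standard protein in particular tissues. Pluripotent stem cells are known for high ribosome production, and differentiation is commonly accompanied by a fall in it.

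RNA was sequenced from human pluripotent stem cells during differentiation to cardiomyocytes, in 80 libraries from 2 experiments. All cultures received CHIR99021, a GSK3 inhibitor that activates WNT signalling, on day 0 and IWP2, an inhibitor of WNT secretion, on day 2 or day 3. Differentiations were classed as high or low purity by cardiac troponin T staining of day 16 cells. The comparison of classes asks which transcripts differ before that outcome is known.

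The multi-omic experiment used poly(A) RNA of the induced pluripotent line WTC11. High purity wells came from a differentiation at passage 52 (25 libraries) and low purity wells from another at passage 69 (31 libraries). Each class had 4 wells on days 0, 2, 4 and 6. Later days had 3 high and 4 low purity wells on day 8, 1 and 4 on day 10, 2 and 4 on day 13, and 3 and 3 on day 16. Purity, passage and differentiation cannot be told apart here, and p-values measure the spread between wells of a single differentiation. The RNA-only experiment used total RNA of H9 (an embryonic stem cell line; high purity at passage 58, low at 55), IMR90-4 (induced pluripotent; high at 55, low at 75) and WTC11 (high at 81, low at 69). Every line had a library of each class at 4 stages, which were day 0, day 2/3, day 4/5 and day 6/7. Whether the 2 WTC11 differentiations at passage 69 are the same was not stated in the labels.

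Multi-omic libraries held 6579715 to 18143597 reads and RNA-only libraries 17990882 to 40357968. By group mean, high purity wells were deeper on days 0, 2, 4, 6 and 8. The means were 14500000 against 8464000 reads on day 0 and 14630000 against 11220000 reads on day 8. On days 10, 13 and 16 the high purity mean was the lower. Of 55 multi-omic libraries in groups of at least 2, 3 had their nearest library in another group, all of them low purity wells of days 13 and 16. TNNT2, the gene of cardiac troponin T, was at 3375 ± 446 TPM (SD, n = 3) in high and 1073 ± 215 TPM (SD, n = 3) in low purity wells on day 16, in the direction of the labels. In bulk RNA, fewer cells of a type and less RNA per cell cannot be told apart.

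The 5′ ends of the members are shown because the TOP tract is the sequence feature that the family shares. Each line gives 10 bases before and 20 bases from a RefSeq start of the gene (GRCh38.p14), 5′ to 3′ on the gene's strand, with the tract in capitals. For RPL26L1 the start used lies inside the gene, which spans 172954094 to 172969771, so its outermost 5′ end is not shown. A tract was a C at the annotated start, on the gene's strand, followed by at least 4 bases of C or T.
RPS6 (chr9:19380217-19380246, minus strand): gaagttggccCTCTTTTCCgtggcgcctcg
RPS21 (chr20:62387093-62387122, plus strand): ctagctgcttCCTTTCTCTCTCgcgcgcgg
RPLP1 (chr15:69452808-69452837, plus strand): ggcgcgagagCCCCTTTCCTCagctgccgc
RPL36 (chr19:5690285-5690314, plus strand): cggcgccagcCCTTCCgccacggccgtctc
RPL22 (chr1:6199576-6199605, minus strand): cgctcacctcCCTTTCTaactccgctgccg
RPL22L1 (chr3:170870176-170870205, minus strand): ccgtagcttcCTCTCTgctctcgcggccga
RPL26 (chr17:8383174-8383203, minus strand): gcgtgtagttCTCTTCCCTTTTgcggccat
RPL26L1 (chr5:172958719-172958748, plus strand): tccaggggtcggcgaacgaaacgcggagct
RPS27 (chr1:153990752-153990781, plus strand): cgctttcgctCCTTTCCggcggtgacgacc
RPS27L (chr15:63157458-63157487, minus strand): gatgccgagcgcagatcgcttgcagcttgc
RPL10 (chrX:154398055-154398084, plus strand): ccactctcagaaatatacgtctgtcacagt
RPS28 (chr19:8321486-8321515, plus strand): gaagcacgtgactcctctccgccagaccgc

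Of the 66 members with an entry in the RefSeq promoter table, 43 had a tract at the annotated start (65.2%), against 1104 of 27305 genes in the table (4.04%). Among members that are no paralog it was 42 of 61 (68.9%). Of the 5 paralogs with an entry, RPL22L1 alone had a tract, with RPL26L1 read at a start inside the gene. RPL10 and RPS28 had no tract at the annotated start, although in RPS28 such a run begins at the next base. Genes with a tract, such as RPS27 and RPL36, and genes without are both among those that changed most below. A window without a tract says only that these letters do not begin at the annotated start: with the tract allowed to begin within 5 bases of it, the shares were 77.3% of members and 21.1% of all genes. Tract length ran from 5 to 19 bases, with a median of 8.

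Transcript levels within the family spanned several orders of magnitude. TPM, a value scaled so that each library has the same sum, divides reads by gene length and library size, so levels can be set beside each other between genes. Over the 56 multi-omic libraries the highest median was that of RPS6, the small subunit protein phosphorylated by S6 kinases downstream of mTOR, at 7336 TPM. RPL5, which carries 5S rRNA into the large subunit, followed at 5267 TPM, then RPL35 at 4569, RPL21 at 4193 and RPS2 at 4104 TPM. These 5 genes held 33.7% of the family's summed TPM. In all, 63 members had a median of at least 100 TPM and 21 of at least 1000 TPM, and the median over members that are no paralog was 543.5 TPM.

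At the other end of the range, RPL10L, a paralog known from testis, was listed at 0 in all 56 libraries. RPL3L, a paralog known from striated muscle, did not exceed 0.574 TPM. RPS18 had a median of 0 and RPS9 of 0.69 TPM, although every cell needs both small subunit proteins. Further rows of both genes with a numbered suffix, which the rule leaves out, also had medians of 0 TPM in these libraries, and none exceeded 1.01 TPM for RPS18 or 0.639 TPM for RPS9. RPL36A at 2.59, RPS10 at 2.68 and RPL17 at 12.4 TPM were also low. Each of these shares its locus with an annotated readthrough gene, and the readthrough rows had medians of 0, 0 and 0.19 TPM. How the counting treated reads shared between such rows, or between members and their many processed pseudogenes, is not given in the sources used here.

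Levels also depended on the experiment. The low purity WTC11 libraries of passage 69 exist as poly(A) and as total RNA for 4 days. On the log2(TPM + 1) scale the median member was lower in poly(A) by a difference of -1.26, and 22 members were lower by at least 4-fold. RPL41, the shortest ribosomal protein, stood at -5.88, RPS27 at -5.75 and RPL27A at -4.10, while RPS16 was higher by 5.23 and RPS21 by 3.09. Spearman's rho between this difference and transcript length, across 73 genes that are not independent, was 0.016. RNA kit and sequencing differ between the experiments together, so levels are compared only within an experiment.

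The summed share of the family was higher in high than in low purity wells on days 2, 4, 6 and 8, with no overlap of wells. On day 2 the family made up 11.5, 12.1, 12.4 and 11.9% of all TPM in the high purity wells and 8.87, 9.19, 9.27 and 9.40% in the low purity wells. On day 4 the shares were 9.01, 9.79, 9.98 and 9.32% against 6.34, 6.62, 6.83 and 6.57%. Every high purity well lay above every low purity well on both days. The difference of means was 2.79 percentage points on day 2 and 2.94 on day 4, and the exact permutation test (two-sided) gave p = 0.0286 on each day, the lowest value that groups of 4 and 4 allow (0.05 after Benjamini-Hochberg adjustment over 7 days).

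On day 0 the family held 8.72% ± 0.0887 (SD, n = 4) in high and 8.14% ± 0.227 (SD, n = 4) in low purity wells, and the wells did not overlap (two-sided exact permutation p = 0.0286, adjusted 0.05). With mitochondrial and small RNA rows left out of the total, the day 0 means were 11.17% and 11.39%, and the wells overlapped (exact p = 0.343). On day 6 the share was 8.78% ± 0.601 against 6.88% ± 0.274 (SD, n = 4 each; exact permutation p = 0.0286, adjusted 0.05). On day 8 it was 7.48% ± 0.379 (n = 3) against 5.87% ± 0.191 (n = 4), with an exact permutation p of 0.0571, the smallest possible. The single high purity well of day 10 had 6.88% against 6.47% ± 0.227 in 4 low purity wells.

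The order of the classes turned late. On day 13 the share was 6.79% ± 0.364 (n = 2) in high and 7.16% ± 0.227 (n = 4) in low purity wells, which overlapped (exact permutation p = 0.267). By day 16 it was 6.01% ± 0.292 in high against 6.81% ± 0.198 in low purity wells (n = 3 each), a difference of -0.796 points that no well crossed (exact permutation p = 0.1, the smallest possible). Mitochondrial and small RNA rows held 46.32% of TPM in high and 36.32% in low purity wells on that day. Without those rows in the total, the share was 11.2% in high and 10.68% in low purity wells on day 16, and 11.88% and 10.7% on day 13, so the sign changed on both days. On days 2, 4, 6 and 8 the high purity share stayed higher with either total. Other RNA moved with the share as well: on day 4 the summed TPM of 6 fibroblast markers was 351 in high and 1166 in low purity wells, that of 8 cardiomyocyte markers 138 and 1319, and that of 6 pluripotency markers 2169 and 1074. Their part in the result was not tested.

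**Figure D1:**
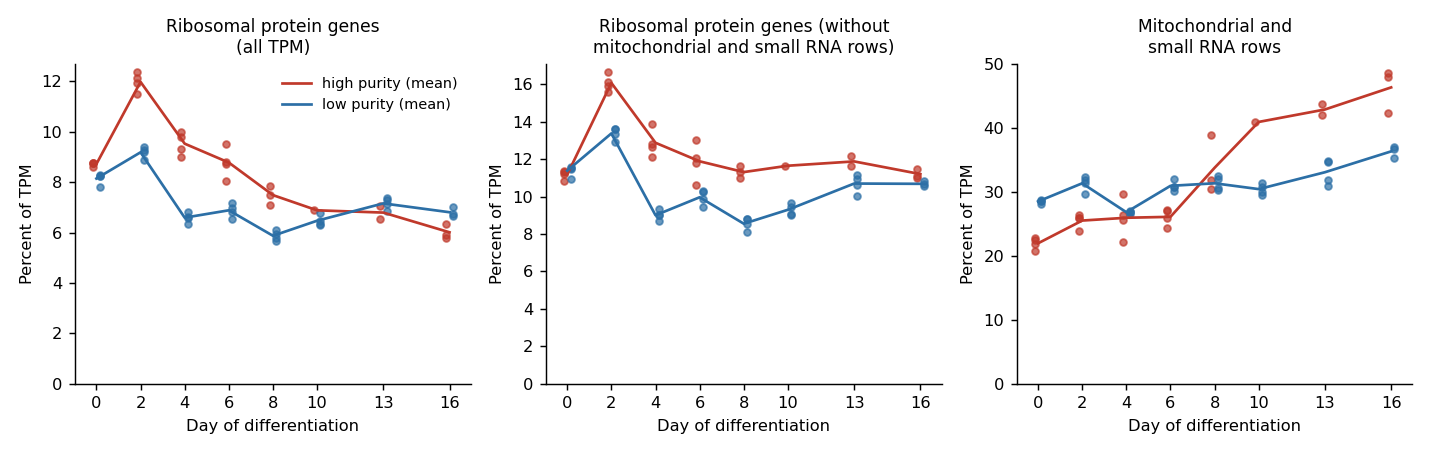
Percent of TPM by day of differentiation in the 56 multi-omic wells: the summed ribosomal protein genes over all TPM (left), over TPM without mitochondrial and small RNA rows (middle), and those left-out rows themselves (right). Points are wells and lines join class means. High purity wells peak on day 2 at a mean of 11.97% against 9.18%, and lie below low purity wells on day 16 only where all TPM is the total.

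Gene by gene, 79 members passed the filter on low values (at least 1 TPM in at least 3 libraries). RPL3L, RPL10L and RPS18 were among those that did not. Log2 TPM + 1 values, scaled between libraries by TMM, were fitted with limma over 25664 genes, and a gene passed at a Benjamini-Hochberg adjusted p under 0.05. Fold changes are high minus low on that scale. On day 0, 28 members passed, 14 higher and 14 lower in high purity wells, and 14.6% of all genes passed. The members' median was -0.02. Without TMM the counts were 22 higher and 13 lower.

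On day 2, 55 members passed, 46 higher and 9 lower, with a median of 0.33, while 37.4% of all genes passed with a median of 0. On day 4, 54 were higher and 1 lower, with a median of 0.45 (36.8% of all genes). On both days the change ran through both subunits. Among 43 large subunit genes outside the stalk, 26 were higher and 4 lower on day 2, and 28 were higher and 0 lower on day 4. Among 28 small subunit genes, 19 were higher and 3 lower on day 2, and 22 were higher and 0 lower on day 4. Most differences were small. Passing with a log2 fold change of at least 1 in size, there were 1, 1, 2, 1, 1, 0 and 1 members on days 0, 2, 4, 6, 8, 13 and 16, beside 1.07, 5.33, 7.84, 8.8, 12.2, 10.8 and 13.4% of all genes.

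On day 6, 33 members were higher and 7 lower (39.9% of all genes passed; median 0.15). On day 8, 59 were higher and 0 lower (44.1% of all genes; median 0.43), or 35 and 4 without TMM. Day 13 had 24 higher and 1 lower (35.9% of all genes, a share above the members' own), or 7 and 9 without TMM, so no direction is given for the family on that day. Day 16 had 10 higher and 26 lower (43.0% of all genes; median -0.12), and 3 and 51 without TMM. Leaving out TMM shifted the median of all genes by -0.18, -0.13 and -0.12 on days 8, 13 and 16. RLE scaling gave 62 higher and 0 lower on day 8, 26 and 1 on day 13, and 13 and 23 on day 16.

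Scaling each library to the family's own median asks which members departed from the rest. On day 2, 24 members then stood above and 23 below, and on day 4, 16 above and 19 below. Because the members' own median is the reference, a roughly even split follows from the scaling and is no result. Of all members with an entry in the promoter table, those with a tract had a median fold change of 0.33 on day 2 (25 of 42 tested higher, 2 lower), and those without 0.28 (11 of 22 higher, 6 lower). On day 4 the medians were 0.49 and 0.46. The ratio of summed RPL to summed RPS TPM rose with time in both classes. It went from 1.58 on day 0 to 2.12 on day 16 in high and from 1.67 to 1.95 in low purity wells. Abundant genes weigh most in such sums. Mean RPS6 between these days went from 9300 to 3473 TPM in high and from 7590 to 5209 TPM in low purity wells.

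**Figure D2:**
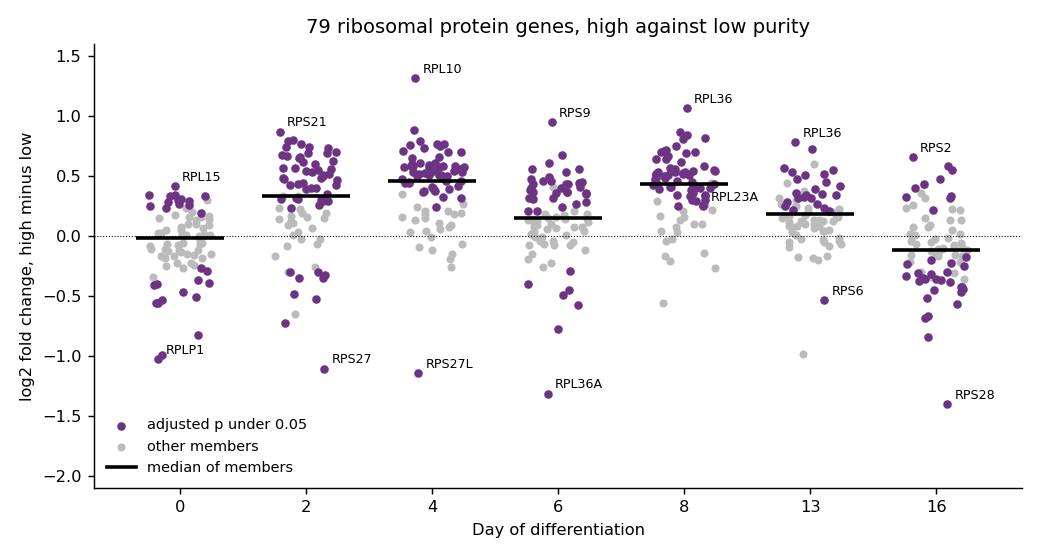
Log2 fold change, high minus low purity, of the 79 ribosomal protein genes tested on 7 days. Each point is a gene, coloured where it passed at an adjusted p under 0.05, the bars are medians of the members, and the passing genes with the highest and lowest change are named. The medians lie at 0.33 on day 2 and 0.45 on day 4, and RPS28 stands apart at -1.40 on day 16.

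RPS21, a small subunit protein, had the highest log2 fold change between classes on day 2. It was at 1196, 1305, 1137 and 1226 TPM in high purity wells and at 724, 686, 672 and 706 TPM in low purity wells. The groups were far apart, with a log2 fold change of 0.87 (SE 0.0801; limma with Benjamini-Hochberg, adjusted p = 4.16e-12). Relative to the family median the change was 0.52. RPS6 was higher in high purity wells as well, at 12450, 13400, 15130 and 13550 TPM against 8458, 8227, 8415 and 9232 TPM on day 2 (log2 fold change 0.73). Its order then turned: on day 13 it was at 3158 and 3657 TPM in high purity wells and at 5103 to 6362 TPM in 4 low purity wells (log2 fold change -0.54, adjusted p = 2.24e-04 by limma). RPS2, a small subunit protein near the mRNA entry, was the highest call of day 16, at 4472, 4863 and 3397 TPM against 3302, 3035 and 2990 TPM. Its log2 fold change was 0.65 with TMM and 0.43 without.

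RPL10 had the highest log2 fold change of day 4. It encodes a large subunit protein that joins late in assembly near the peptidyl transferase centre, and lies on chromosome X from 154398065 to 154402339. High purity wells had 187.4, 178.6, 196.0 and 182.6 TPM, and low purity wells 74.8, 76.1, 80.3 and 67.0 TPM. This is a log2 fold change of 1.32 (SE 0.0613; adjusted p = 5.44e-22 by limma), and 0.87 relative to the family median. From day 0 to day 2 RPL10 changed by -0.39 in high and by -0.64 in low purity wells, and the difference between these changes was 0.25 (limma adjusted p = 0.0358). That difference did not pass without TMM (0.12, limma adjusted p = 0.444) or relative to the family median (-0.16, limma adjusted p = 0.177). By day 16 the order was reversed, at 126.7, 134.2 and 141.8 TPM in high and 227.4, 210.4 and 212.7 TPM in low purity wells (log2 fold change -0.47, limma adjusted p = 3.57e-07). In the total RNA libraries at stage 3, RPL10 was at 1088, 970.6 and 819.2 TPM in high purity H9, IMR90-4 and WTC11 and at 964.3, 866.2 and 869.8 TPM in low purity, so WTC11 had no such difference there. RPL3, which lies by the peptidyl transferase centre too, was the next highest on day 4, with 2641, 2855, 2635 and 2783 TPM against 1368, 1473, 1648 and 1450 TPM (log2 fold change 0.89).

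RPS28, a small subunit protein at the mRNA exit, carried the largest difference of day 16. The gene lies on chromosome 19 from 8321496 to 8323340. High purity wells had 43.2, 52.3 and 59.6 TPM and low purity wells 153.6, 161.7 and 163.5 TPM. The classes lay far apart, with a log2 fold change of -1.40 (SE 0.172; adjusted p = 3.55e-09 by limma). Within the high purity class RPS28 fell by 1.43 on the log2 scale from day 8 to day 16. The classes differed in the change from day 0 to day 16 by -1.49 (limma adjusted p = 7.10e-07).

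RPL36, a large subunit protein on chromosome 19 from 5690295 to 5691875, had the highest log2 fold change between classes on days 8 and 13. On day 8 it was at 985.4, 900.2 and 987.7 TPM in high and at 609.4, 488.8, 516.5 and 538.3 TPM in low purity wells (log2 fold change 1.06, or 0.62 relative to the family; limma adjusted p = 1.01e-06). On day 13 it was at 1019 ± 60.2 TPM (n = 2) against 681 ± 87 TPM (n = 4), a log2 fold change of 0.78. RPL37, a zinc-binding large subunit protein, rose within the high purity class by 1.09 from day 8 to day 16. Its day 16 wells had 131.2, 129.6 and 121.3 TPM against 99.9, 102.3 and 101.9 TPM in low purity (log2 fold change 0.55, limma adjusted p = 3.14e-07).

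Before induction, the highest log2 fold change among members that passed was that of RPL15, a large subunit protein, at 251.2 to 260.0 TPM in high and 176.7 to 191.6 TPM in low purity wells. Its log2 fold change on day 0 was 0.41 (adjusted p = 3.03e-06 by limma). RPS27, a zinc finger protein of the small subunit, lay the other way, at 63.1 to 79.3 TPM in high and 121.2 to 137.8 TPM in low purity wells. On day 2 RPS27 was at 143.9, 122.9, 174.0 and 152.8 TPM against 275.3, 391.7, 389.6 and 294.4 TPM (log2 fold change -1.11, limma adjusted p = 3.52e-07), against the direction of most members. On day 4 the classes of RPS27 overlapped. In these poly(A) libraries RPS27 was recovered far less than in total RNA, as given above, so its differences rest on 144 to 608 reads per well on days 0 and 2.

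The stalk is the flexible arm of the large subunit that recruits elongation factors. It is built from RPLP0, the base, and dimers of RPLP1 and RPLP2. On day 2 RPLP0 was at 2928, 3346, 3056 and 3065 TPM in high and 1977, 2030, 2019 and 2094 TPM in low purity wells, without overlap (log2 fold change 0.68, adjusted p = 5.44e-12 by limma). RPLP2 lay at 3038 to 3597 TPM against 3214 to 3436 TPM, with overlap. RPLP1 had a log2 fold change of -0.30 that did not pass (limma adjusted p = 0.355).

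On day 0 RPLP1 was the lowest call, at 478.7, 572.2, 444.8 and 594.1 TPM in high and 1002, 1042, 1080 and 934.3 TPM in low purity wells (log2 fold change -1.03, SE 0.234; limma adjusted p = 0.00163). By day 4 RPLP2 had joined RPLP0, with 2377 to 3098 TPM against 1779 to 2047 TPM (log2 fold change 0.51), while RPLP1 did not pass. From day 0 to day 16 the classes differed in the change of RPLP1 by 1.28 (limma adjusted p = 0.00373). The 3 stalk genes thus kept no common order between classes on days 0 and 2.

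RPL22L1 had the largest swing of any member relative to the family. It encodes a paralog of RPL22, an RNA-binding large subunit protein, and lies on chromosome 3 from 170864875 to 170870195. On day 0 it was at 117.2, 123.4, 136.2 and 129.8 TPM in high and 122.9, 136.1, 134.4 and 135.7 TPM in low purity wells. The values of day 2 were 33.1, 25.1, 31.2 and 32.5 TPM and 39.5, 33.8, 33.6 and 36.5 TPM. The classes overlapped on day 0 and each fell, by a log2 change of -2.06 in high (SE 0.0913; limma adjusted p = 1.40e-23) and -2.02 in low purity wells (limma adjusted p = 2.58e-23). The difference between these changes was -0.04 (limma adjusted p = 0.914).

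RPL22 itself rose over the same step, by 0.60 on the log2 scale in high and 0.26 in low purity wells. Taking RPL22 and RPL22L1 together, the paralog's share of the TPM fell from 13.9% to 2.43% in high and from 13.9% to 3.18% in low purity wells. On day 4 RPL22L1 had a mean of 46.5 TPM in high and of 32.6 TPM in low purity wells. This log2 fold change of 0.50 passed (adjusted p = 1.35e-05 by limma) but was lost when libraries were scaled to the family median. The fall also appeared in the total RNA libraries, which share no differentiation with the high purity wells. There RPL22L1 went from 117.4 to 228.3 TPM at stage 1 to 40.1 to 65.7 TPM at stage 2, and fell in 6 of 6 differentiations, by a mean log2 change of -2.03 (SD 0.339, n = 6). RPL22 rose in 3 and fell in 3 of them.

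**Figure D3:**
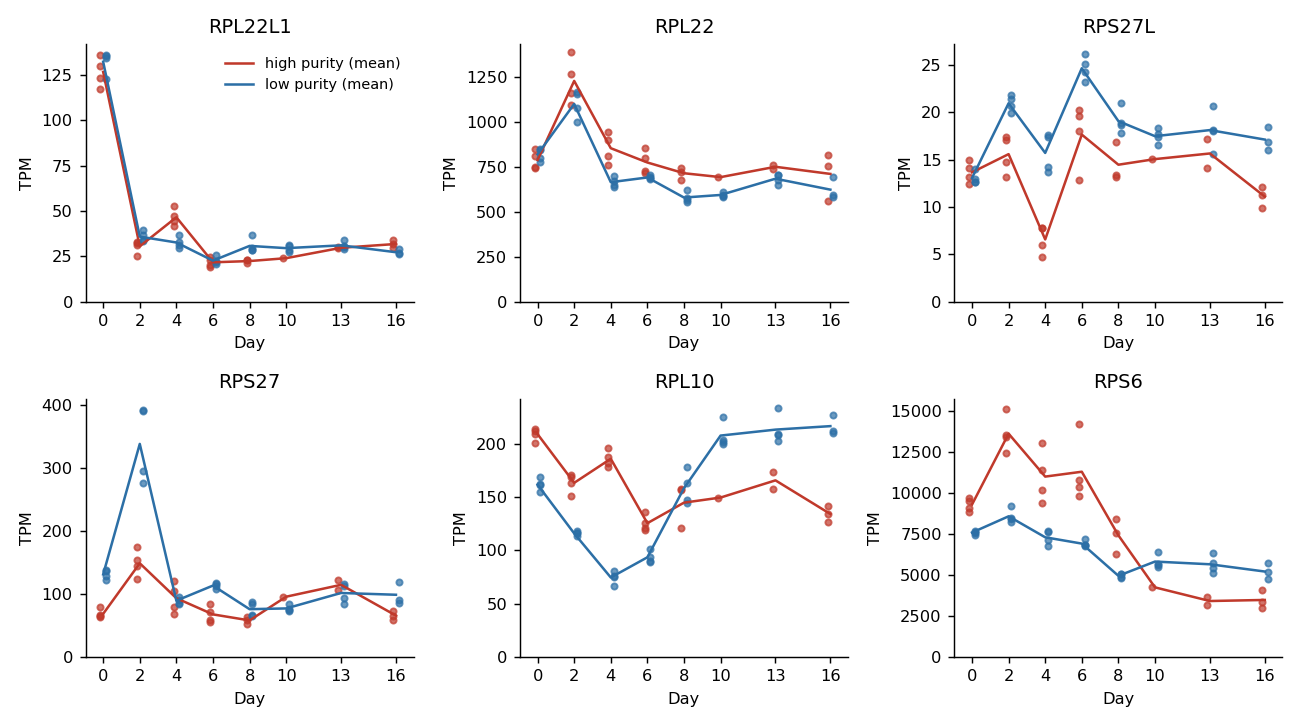
TPM by day for RPL22L1, RPL22, RPS27L, RPS27, RPL10 and RPS6 in the multi-omic wells (points), with class means (lines). RPL22L1 falls from above 117 TPM to below 40 TPM between day 0 and day 2 in both classes, RPS27L dips on day 4, furthest in the high purity wells, and RPL10 and RPS6 change their order between the classes.

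RPS27L, a paralog of RPS27 whose gene is a known p53 target, lies on chromosome 15 from 63148249 to 63157477. On day 4 it was at 7.81, 7.73, 4.71 and 6.00 TPM in high and 17.4, 14.2, 13.7 and 17.6 TPM in low purity wells. The groups did not overlap, with a log2 fold change of -1.14 (SE 0.118, limma adjusted p = 5.87e-11). Of 79 members tested on day 4, 8 had a fold change below 0, and RPS27L alone passed as lower in high purity wells. Within the high purity class its log2 change was -1.25 from day 2 to day 4 and 1.22 from day 4 to day 6, and in the low purity class -0.45 and 0.57, all of which passed. On days 2 and 6 it was lower as well, with log2 fold changes of -0.35 and -0.49. The call of day 2 was lost without high purity well 2 (limma adjusted p = 0.0548) or well 3 (adjusted p = 0.079). Relative to the family median RPS27L stood furthest from the rest on day 4, at -1.56.

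A list of 6 p53 targets that are no members was given beside it. All 6 were lower in high purity wells on day 4, where 17.8% of all genes were lower, with CDKN1A at -3.19, ZMAT3 at -1.48 and MDM2 at -0.89. Their median was -1.09. Within the high purity class all 6 fell from day 2 to day 4 (22.8% of all genes) and all 6 rose from day 4 to day 6 (14.4% of all genes). The parallel with RPS27L did not hold on day 2. There the summed TPM of the 6 averaged 222.6 for the high purity class and 189.2 for the low. RPS27L averaged 15.57 and 20.95 TPM in the same order. From day 2 to day 4 the low purity sum rose to 251.2, while mean RPS27L fell to 15.7 TPM. On day 6 the sum was lower for the high purity class, at 211.9 against 279.6, as was RPS27L. Whether RPS27L follows these genes was not tested. The TOP tract of RPS27, shown above, is absent from the window of RPS27L. In total RNA at stage 3 RPS27L was at 15.3, 17.0 and 7.35 TPM in high and at 21.0, 22.8 and 9.07 TPM in low purity H9, IMR90-4 and WTC11. It was lower in 3 of 3 lines at stages 2 and 3, without passing (edgeR with Benjamini-Hochberg, adjusted p = 0.645 and 0.664).

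RPL39L, a paralog of RPL39 known from germ cells and stem cells, fell in both classes from 30.0 to 38.6 TPM on day 0 to 10.8 to 14.4 TPM on day 16. The log2 change was -1.15 in high and -1.46 in low purity wells. In the total RNA libraries it fell in 6 of 6 differentiations from stage 1 to stage 4, by a mean of -1.41 (SD 0.460, n = 6). RPL26L1 made up 3.52% of the TPM of RPL26 and RPL26L1 on day 0 in high purity wells, 1.70% on day 2 and 4.07% on day 16. In low purity wells the shares of these days were 2.81%, 1.81% and 2.35%. On day 8 RPL26L1 held 3.47% in high and 3.59% in low purity wells. RPL7L1, related to RPL7, passed on day 8 alone of the 7 days (log2 fold change 0.33), and RPL26L1 had 0.34 on that day. Both turned to -0.11 and -0.09 when libraries were scaled to the family median, and stood at 0.11 and 0.12 without TMM. Both calls rested on single wells: without high purity well 1 RPL7L1 had 0.12 (limma adjusted p = 0.277), and without high purity well 4 RPL26L1 had 0.21 (limma adjusted p = 0.244).

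RPL3L had 0.254 ± 0.123 TPM in high against 0.0289 ± 0.0501 TPM in low purity wells on day 16 (SD, n = 3 each), under the filter. Both calls of low rows on day 6 rest on few reads. RPL36A, at 0.935 ± 0.593 against 3.88 ± 1.21 TPM (log2 fold change -1.31, limma adjusted p = 0.00515), had 1 to 4 reads in high and 5 to 10 in low purity wells. RPS9, at 1.91 ± 0.506 against 0.438 ± 0.177 TPM (log2 fold change 0.95, limma adjusted p = 0.0191), had 5 to 13 and 1 to 2. With a pseudocount of 0.1 the 2 fold changes became -2.09 and 1.88.

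Most members fell from day 2 to day 4 in both classes, while the step before differed. In high purity wells 65 members passed from day 0 to day 2, 55 rising and 10 falling (50.7% of all genes passed; member median 0.38). From day 2 to day 4, 1 rose and 70 fell (46.3% of all genes; median -0.46), and from day 4 to day 6, 1 rose and 38 fell (33.0% of all genes; median -0.23). In low purity wells 13 rose and 14 fell from day 0 to day 2 (53.4% of all genes, above the members' share; median -0.06), or 28 and 5 without TMM. Then 0 rose and 74 fell from day 2 to day 4 (49.7% of all genes; median -0.58). These consecutive steps share the wells of the day between them.

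The change from day 0 to day 2 was itself tested between classes. For 47 members it was more positive in high purity wells and for 0 more negative, with a median difference of 0.39, while 18.6% of all genes passed. RPLP0 differed by 0.55 (limma adjusted p = 8.83e-06), RPS21 by 0.53 (adjusted p = 4.63e-04) and RPS6 by 0.50 (adjusted p = 0.00530). Without TMM the counts were 32 and 3, and relative to the family median 3 and 11.

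For the later steps the difference between classes in the change was not tested, and each class is given on its own. From day 6 to day 8, 3 members rose and 2 fell in high purity wells (30.0% of all genes), and 3 rose and 35 fell in low purity wells (25.7% of all genes). Without TMM the step gave 1 and 35 in high and 3 and 38 in low purity wells, and RLE scaling gave 5 and 2 in high purity wells. From day 4 to day 6, 6 rose and 4 fell in low purity wells (35.3% of all genes), with 18 and 3 without TMM and 12 and 4 with RLE. From day 8 to day 16, 6 rose and 22 fell in high purity wells (41.1% of all genes; 3 and 51 without TMM), while 61 rose and 0 fell in low purity wells (32.3% of all genes; median 0.45; 40 and 1 without TMM).

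Across the whole course, most members ended lower than they began. From day 0 to day 16, 5 members rose and 53 fell in high purity wells (64.9% of all genes; median -0.42), and 9 rose and 53 fell in low purity wells (64.5% of all genes; median -0.40). RPS27A, whose protein is made as a fusion with ubiquitin, fell by 1.88 on the log2 scale in high and by 1.57 in low purity wells. It went from 1067 to 1112 TPM on day 0 to 240.7 to 263.7 TPM on day 16 in the high class. In total RNA it fell in 6 of 6 differentiations from stage 1 to stage 4, by a mean log2 change of -0.49 (SD 0.121, n = 6). The change from day 0 to day 16 differed between classes for 31 members, 10 more positive and 21 more negative in high purity wells (34.8% of all genes). This split was 5 and 45 without TMM and 13 and 17 with RLE. RPL10 at -0.78 and RPL36 at 0.98 were among them.

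A minority of the changes with time reached a size of 1 on the log2 scale. In high purity wells it was 5, 3, 2, 0, 2 and 12 members for the steps from day 0 to 2, 2 to 4, 4 to 6, 6 to 8, 8 to 16 and 0 to 16, beside 16.7, 13.7, 7.96, 5.58, 11.4 and 35.4% of all genes. In low purity wells it was 2, 6, 0, 0, 0 and 6 members, beside 17.9, 16.9, 6.62, 3.31, 6.39 and 34.1%. Between classes it was 0 for the change to day 2 (3.22% of all genes) and 2 for the change to day 16 (13.4%).

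**Figure D4:**
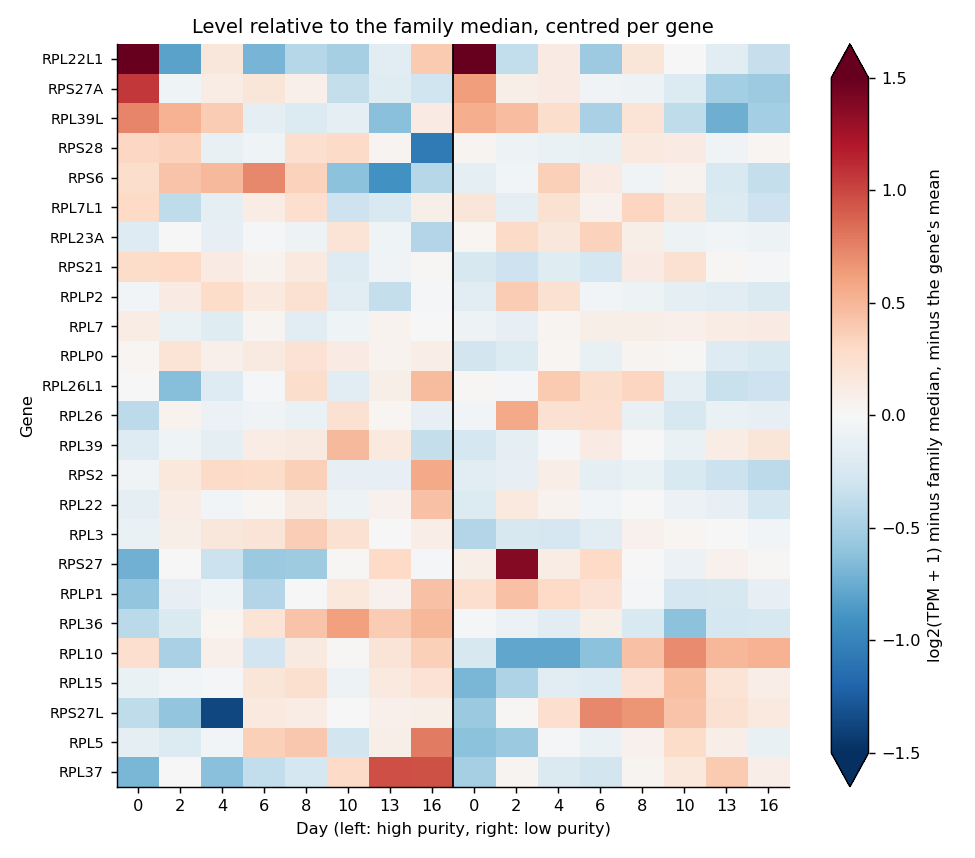
Named genes with a median of at least 10 TPM by day and class: log2(TPM + 1) minus the median of the non-paralog members of the library, averaged per group and centred on each gene's mean, on a colour scale from -1.5 to 1.5. RPL22L1 and RPS27A start high in both classes, RPS27L is lowest in high purity wells on day 4, RPS27 is highest in low purity wells on day 2, and RPS28 is lowest in high purity wells on day 16.

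In the 3 lines of the RNA-only experiment the family's share of all TPM did not follow class. At stage 1 it was 16.12% of TPM in high and 16.36% in low purity H9, 14.56% and 13.85% in IMR90-4, and 14.58% and 15.54% in WTC11. At stage 2 it was 17.86% and 16.45% in H9, 14.75% and 13.06% in IMR90-4, and 15.82% and 17.49% in WTC11. At stage 3 H9 had 17.44% and 14.54%, IMR90-4 15.3% and 16.23%, and WTC11 13.13% and 14.94%. Stage 4 gave 13.37% and 12.47% in H9, 11.44% and 11.3% in IMR90-4, and 12.01% and 15.01% in WTC11. High purity WTC11 was lower than low purity WTC11 at all 4 stages, opposite to the multi-omic wells of days 2, 4 and 6. Without mitochondrial and small RNA rows in the total, high minus low was 2.375, 3.10, 5.32 and 0.521 points in H9 at stages 1 to 4. In IMR90-4 it was 0.448, 1.59, 1.03 and 2.41 points, and in WTC11 -1.18, -1.06, -2.49 and -2.185 points. As a share of counts, H9 was lower in high purity at stage 4 (-0.0173) and IMR90-4 at stage 3 (-0.956).

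For the share of all TPM, the mean within-line difference was -0.162 ± 0.84, 0.475 ± 1.86, 0.0507 ± 2.51 and -0.656 ± 2.07 points at stages 1 to 4 (SD, n = 3 lines). No exact test of 3 pairs can give a p under 0.25. With time, the share rose from stage 1 to stage 2 in 5 of 6 differentiations, and in 6 of 6 with mitochondrial and small RNA rows left out of the total, by 4.35 to 7.75 points. From stage 2 to stage 3 the step was mixed: the share rose in 2 of 6, with a mean change of -0.641 points (SD 2.26). With those rows left out it rose in 3 of 6, with a mean change of 1.63 points (SD 2.81). From stage 3 to stage 4 the share of all TPM fell in 5 of 6.

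Among 80 members tested in the RNA-only experiment with edgeR over 23848 genes, 0 passed between classes at any stage, as did 0 of all genes (0.0%); DESeq2 also gave 0. At an unadjusted p under 0.05, 0, 1, 3 and 3 members passed at stages 1 to 4, all lower in high purity, beside 1.48, 7.95, 7.54 and 12.1% of all genes. Medians of the members were -0.01, 0.01, -0.12 and -0.09. Of 79 members compared across lines, 0, 3, 1 and 0 were higher in high purity in all 3 lines, where 10.9, 19.3, 21.6 and 14.8% of all genes were. In the other direction it was 7, 4, 3 and 11 members, beside 10.0, 11.5, 7.37 and 17.4% of all genes.

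**Figure D5:**
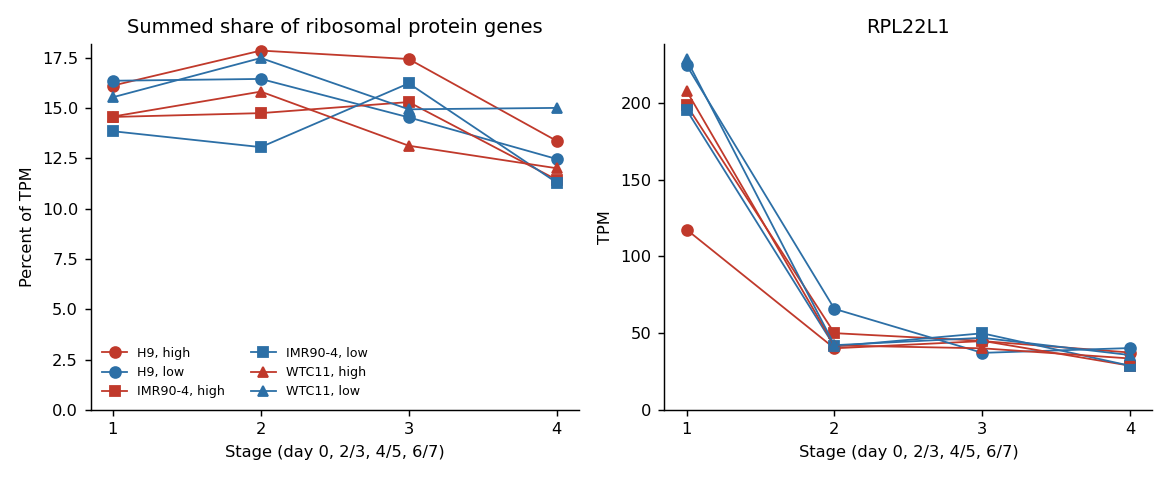
RNA-only libraries by stage (day 0, day 2/3, day 4/5, day 6/7) for 3 lines and both classes, 1 library per point: summed share of the ribosomal protein genes in percent of TPM (left) and TPM of RPL22L1 (right). The classes cross in the left panel, while RPL22L1 drops in all 6 differentiations, to between 40.1 and 65.7 TPM at stage 2.

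Other genes of the translation machinery were described by lists. Of 15 tested translation factors and related genes with known TOP mRNAs, 14 were higher and 0 lower in high purity wells on day 2 (median 0.48), when 37.4% of all genes passed. EEF2, which moves the ribosome along the mRNA, was higher by 0.90 and EEF1A1, which brings aminoacyl-tRNA, by 0.73. Their change from day 0 to day 2 was more positive in high purity wells for 13 and more negative for 0 (18.6% of all genes passed). Of 11 snoRNA host RNAs, several of which carry TOP tracts, 8 were higher and 1 lower on day 2 (37.4% of all genes passed). Ribosomal protein genes outside the rule were not uniform on that day, with FAU at 0.34 and RPL36AL at -1.05, both of which passed.

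Of 30 ribosome assembly and RNA polymerase I factors tested, 6 were higher and 12 lower in high purity wells on day 2, beside the same 37.4% of all genes. From day 0 to day 2, 2 rose and 24 fell in high purity wells (median -0.93), the step in which 55 ribosomal protein genes rose, and 0 rose and 29 fell in low purity wells (median -0.82). Of all genes, 50.7% passed over that step in high and 53.4% in low purity wells. MYC, a known activator of ribosome production, fell by 3.04 on the log2 scale in high and by 2.82 in low purity wells over that step, and MYCN fell by 2.53 in high purity wells. Of 74 mitochondrial ribosomal protein genes tested, 1 rose and 56 fell in high and 0 rose and 60 fell in low purity wells from day 0 to day 2. Between classes, 16 were higher and 14 lower on day 2, a share near the 37.4% of all genes, and 51 were higher and 1 lower on day 8 (median 0.47; 44.1% of all genes).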

How the data were processed

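The authors deposited read counts per gene and TPM for both experiments. The submitters' processing notes name STAR 2.5.3a, featureCounts 2.0.3 and hg38. How TPM was computed is not given in the sources used here. Per the labels' protocols, TruSeq Stranded mRNA (multi-omic) and SMARTer Stranded Total RNA (RNA-only) kits were used. Of 56 multi-omic count columns, 0 matched the TPM of their own name and 50 matched another name, so deposited TPM was used there. For days 0 to 6, 32 of 32 TPM columns and 6 of 32 count columns were nearest to a same-day RNA-only WTC11 library. Gene lengths solved from the RNA-only tables turned TPM into whole reads (100% of nonzero values of 37194 genes, within 0.01), which gave the depth.

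TPM was fitted with limma 3.58.1 (limma-trend, 16 group means, 40 residual degrees of freedom, pseudocount 1, TMM from edgeR 4.0.16) and RNA-only counts with edgeR quasi-likelihood (line by stage means, 8 residual degrees of freedom) in R 4.3.3. DESeq2 1.42.0 was an alternative. Shares were compared in Python 3.11.15 with scipy 1.17.1. In the RNA-only fit the line pairs high and low purity. Well numbers of the multi-omic classes did not pair samples: 0 of 24 pairs had a correlation of deviations over 0.1 (-0.016 to 0.033). On simulated data for day 0, limma recovered 95% of changes of 1 and 24% of changes of 0.5 (log2) among 21040 genes. The RNA-only fit recovered 96% and 15% at stage 4 among 22485 genes. Both simulations used a fixed spread between libraries and no differences between days, lines or stages. In the RNA-only simulation each change was the same in every line. These recovery values therefore do not say which changes the real RNA-only data could have shown.

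Genes were named by rule: paralogs with their counterparts, stalk genes, the 8 other members of widest range relative to the family, the highest and lowest passing fold change of each day, the highest and lowest median, and the largest change at each RNA-only stage. RPL3 on day 4 was within it, and RPL35, RPL21, RPL41, RPL27A and RPS16 were named after their values were seen. Values of some genes are not reported here. Members, lists and tests were chosen with earlier results of these data known.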

Additional observations from a re-analysis of the deposited data

Results flagged for a closer look

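Of 306 checks of a measure within a group of 4 wells, 29 had a highest or lowest well far from the other 3; chance alone flags about 1 in 20 such groups. In high purity wells of day 0, the summed share was 8.585% in well 3, RPL36A was at 7.437 TPM in well 3 and RPS27 at 79.33 TPM in well 4. On day 2 RPL7 was at 670.6 TPM in well 1 and RPS28 at 366.2 TPM in well 2. On day 4 RPLP1 was at 1257 TPM in well 2, with the others at or under 682 TPM, and RPL5 at 7184 TPM in well 3. On day 6 high purity well 4 stood apart for RPL7 (487.3 TPM), RPL39 (988.1 TPM), RPLP0 (1659 TPM), RPS28 (100.5 TPM) and RPL5 (8292 TPM), and well 2 for RPS10 (8.37 TPM).

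In low purity wells of day 0, well 1 had a summed share of 7.802% and RPL22L1 at 122.9 TPM. RPL3 was at 2155 TPM in well 1 of day 2, RPL15 at 167.0 TPM in well 4 of day 4, RPS6 at 7225 TPM in well 4 and RPL5 at 4750 TPM in well 2 of day 6. On day 8 well 1 had RPL22L1 at 36.58 TPM and RPLP1 at 897 TPM, with the others between 413 and 430 TPM. On day 10 RPL7 was at 412.2 and RPS27 at 83.94 TPM in well 2, and RPL10 at 225.5 and RPS21 at 718.3 TPM in well 4. On day 13 well 1 had RPL5 at 6353, RPL15 at 295.7 and RPL36 at 551.7 TPM, and well 2 RPS2 at 3018 TPM.

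The interaction test found that the change from day 0 to day 2 differed between the classes for 47 members (59.49% of those tested). Of all genes, 18.6% passed. The change from day 0 to day 16 differed for 31 members (39.24%), near the 34.8% of all genes. Relative to the family median the counts were 14 and 41, and without scaling 35 and 50.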

How the results depend on the processing

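Depth bounds low members: RPL36A, RPS9 and RPL3L had few reads, and the RNA-only test has 3 lines. Passing members that also reached a log2 fold change of 1 in size numbered 1, 1, 2, 1, 1, 0 and 1 for the 7 days, 5, 3, 2, 0, 2 and 12 for the high purity steps (day 0 to 2, 2 to 4, 4 to 6, 6 to 8, 8 to 16 and 0 to 16), 2, 6, 0, 0, 0 and 6 for the low purity steps, and 0 and 2 for the differences between classes to days 2 and 16. At the adjusted p alone, with no limit on fold change, 35 members passed relative to the family median on day 4 and 30 on day 8. For the first 4 high purity steps it was 41, 34, 15 and 10. For low purity day 2 to 4, 4 to 6 and 8 to 16 it was 40, 17 and 20, and for the difference to day 2 it was 14. Without scaling, again at the adjusted p alone, 39 passed on day 8 and 16 on day 13. High purity day 6 to 8 and 8 to 16 had 36 and 54, low purity day 4 to 6 had 21, and the difference to day 16 had 50. RLE gave 16 for low purity day 4 to 6. The cause was not tested. The counts that follow are at the adjusted p alone as well.

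Leaving out single wells gave 10 to 29 on day 13 (10 without high purity well 3, which leaves 1 well assumed to vary like the others), 21 to 49 for high purity day 4 to 6 (24 without day 4 well 2, 21 without day 6 well 1), 3 to 7 for day 6 to 8 (3 without day 6 well 2), 17 to 27 for day 8 to 16 (17 without day 16 well 2) and 7 to 16 for low purity day 4 to 6 (16 without day 6 well 1). With the well number as a replicate block, 54 members passed on day 2 and 55 on day 4, and no count moved by over 1.5 times; without the block by line, 0 passed at each RNA-only stage. The wells share only a number, and the pairing check is given with the methods.

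The difference in share without mitochondrial and small RNA rows was -0.213, 3.87, 2.76, 1.18 and 0.517 points on days 0, 4, 8, 13 and 16. As a share of reads it was 0.127, 1.03, 1.22, 0.666, 0.788, 0.258 and 0.0408 points on the 7 days. Had the deposited count columns been read by their own names, it would have been 0.2998, 1.16, 0.591, 0.7998, 0.594, 1.46 and 1.08. Of 593 alternatives to 39 named results of single genes, 547 kept their direction and side of the threshold, 43 lost the call and 3 reversed, all on day 8 relative to the family: RPL23A at -0.20, RPL7L1 at -0.11 and RPL26L1 at -0.0934. Among alternatives to the counts of passing members and the shares, 414 stayed the same, 56 moved and 7 reversed. Those reversals were all changes of sign of the share difference, on days 0, 13 and 16.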
